A study of Mus musculus with 32 samples.

Results

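Ribosome biogenesis factors are the proteins that make ribosomes without being part of the finished particle. A list of 53 such genes was followed in regenerating mouse liver, in livers with and without deletion of Rps6, the gene of a protein of the small ribosomal subunit. A gene was represented by a probe set, a group of oligonucleotides on the array, annotated to that gene alone. Where a gene had several, the probe set with the highest mean over the 32 arrays was used. By this rule 44 of the 53 genes had a probe set of their own, among 8251 genes on the array that did. Nob1, Wdr3, Heatr1, Nat10, Nop14, Riok2, Mrto4, Noc2l and Dkc1 had none and were dropped. Riok1 and Wdr12 were measured but lay below the detection filter on every array, which left 42 members for testing, among 6786 genes tested. The members comprised 5 genes of the RNA polymerase I machinery, 12 tested small-subunit factors, 14 tested large-subunit factors, 7 proteins of small nucleolar ribonucleoproteins (snoRNPs) and 4 nucleolar proteins that act at several steps.

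Ribosome assembly begins in the nucleolus, where RNA polymerase I transcribes a long precursor of the ribosomal RNAs. SnoRNPs guide the chemical modification and cleavage of the precursor, and separate sets of assembly factors then mature, proofread and export the small and the large subunit. Hepatocytes of the intact liver rarely divide, and partial removal of the liver sets off growth and cell division in what remains, a process that calls for new ribosomes.

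The arrays measured messenger RNA in 32 livers of male C57BL/6 mice aged 3 months, all homozygous for floxed Rps6 (RPS6 in the labels). Cre plus mice carried the mx-cre transgene, whose Mx promoter responds to interferon, and Cre minus mice did not. Deletion was brought about with polyinosinic-polycytidylic acid, an interferon inducer, which acts through the promoter in interferon-responsive cells and is not specific to hepatocytes. Livers were taken at 0, 20, 30 and 40 h after partial hepatectomy. Each Cre minus group held 4 livers, and the Cre plus groups held 4, 4, 3 and 5 in the order of time. The sources used here do not state whether Cre minus mice were injected, and sham-operated livers are not among the labels. The labels give 2 batches, PHX2 and PHX3, and each group held arrays of both. The Cre minus livers at 40 h had 1 array in PHX2, and the Cre plus livers at 30 h had 1 in PHX3. Separate mice for the livers are not stated in the labels, and the p-values rest on a spread between samples that may be technical in part.

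Values are log2 expression values, and differences between groups, given with a standard error (SE), are log2 differences. Adjusted p-values come from limma with the Benjamini-Hochberg method over all 9249 probe sets tested, within each comparison, and a gene is said to have risen or fallen only at an adjusted p under 0.05. Livers of a group carry the letters A to E of the labels, and their values are given in that order, which has no meaning. Rps6 lay at 10.99 to 11.82 in the Cre minus livers and at 6.24 to 7.69 in the Cre plus livers. Its probe set is also annotated to a pseudogene. The 9 tested markers of hepatocytes were summed on the linear scale and lay between 15.25 and 15.61 as log2 in every liver, so markers of the labelled tissue were present throughout. Arrays of Cre minus 30 h C, Cre plus 30 h A and Cre plus 40 h D stood apart, with mean correlations with their own groups of 0.945, 0.949 and 0.943. Results at 30 and 40 h are therefore also given without them. In whole liver, fewer cells of a type and less RNA per cell cannot be told apart, which holds for every difference given here.

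On average the members lay lowest at 0 h in both genotypes. Expressed as the mean deviation of the 42 members from their own averages over all arrays, the 4 Cre minus livers at 0 h lay between -0.43 and -0.26 and the 4 Cre plus livers between -0.34 and -0.18. At 20 h the Cre minus livers spread from -0.18 to 0.35, and at 40 h they lay at -0.27 to -0.12. The range of the Cre plus livers was 0.10 to 0.46 at 20 h. It narrowed to 0.14 to 0.22 at 30 h, with 3 livers, and was 0.01 to 0.34 for the 5 livers of 40 h. At 40 h no Cre minus liver reached the level of any Cre plus liver. At 30 h the Cre minus livers A, B and D lay below every Cre plus liver, while Cre minus C, at 0.43, lay above them all.

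**Figure D1:**
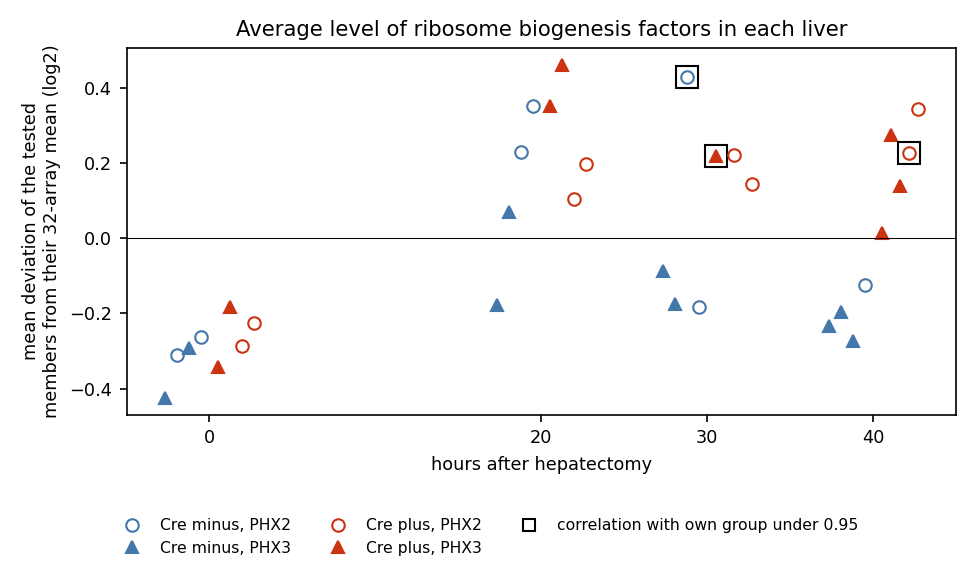
Each symbol is a liver, placed by hours after hepatectomy on the horizontal axis and by the mean deviation of the 42 tested members from their averages over the 32 arrays (log2) on the vertical axis. Blue is Cre minus, red is Cre plus, symbol shape is the batch, and black squares mark the 3 arrays that stood apart; at 40 h the Cre minus livers reach -0.12 at most and the Cre plus livers start at 0.01.

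The first comparison was of 20 h with 0 h in Cre minus livers, where Rps6 is intact. Without sham-operated livers, the removal of liver and the rest of the operation cannot be told apart in it. Of the 42 members 12 rose and 30 did not pass, against a background of 3.29% of all genes tested that rose and 7.69% that changed in either direction. The median difference was 0.37 over the members and -0.03 over all genes. The largest increases were those of Nop56, Tsr1, Gnl3, Ncl and Nop58, and 41 of the 42 differences were positive. The exception was Rcl1, a protein of small-subunit precursor cleavage, at -0.65 (SE 0.25, adjusted p = 0.115). The groups did not overlap for 20 of the 42 members, as for 17.7% of all genes. The median was 0.57 within PHX2 and 0.24 within PHX3. Leaving out 1 liver lowered the count of 12 to 4 (Cre minus 0 h A), 6 (0 h B), 6 (20 h B), 3 (20 h C) and 2 (20 h D). Here and in the later comparisons over time, the shares of all genes called without a liver are not given. Such counts show only how far the calls depended on single livers.

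The RNA polymerase I machinery had a median of 0.31 at 20 h, with 1 of 5 genes past the threshold. Polr1c, a subunit shared with RNA polymerase III, rose by 0.31 (SE 0.09, adjusted p = 0.0450), but its other probe set gave -0.27 (adjusted p = 0.243). Polr1b, a large catalytic subunit, had the smallest difference of the class, 0.02 (SE 0.13). Polr1a, the largest subunit, differed by 0.37 (SE 0.15, adjusted p = 0.137), and Ubtf, which binds the ribosomal RNA gene promoter, by 0.15 (SE 0.08, adjusted p = 0.265).

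Among the small-subunit factors 1 of 12 rose, and the median was 0.35. Tsr1, which sits on late precursors of the small subunit, measured 6.40, 6.37, 6.66 and 6.31 in Cre minus livers at 0 h and 7.02, 7.49, 7.53 and 7.93 at 20 h. Every liver at 20 h lay above every liver at 0 h, and the difference was 1.06 (SE 0.26, adjusted p = 0.0135). Wdr43, a protein of the early complex that forms on the precursor, differed by 0.48 (SE 0.16, adjusted p = 0.0602). Rrp9, a component of the snoRNP that directs early cleavage, was nearest 0 in the class at 0.11 (SE 0.08).

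The large-subunit factors had a median of 0.44, and 5 of 14 rose. Gnl3 (nucleostemin), a nucleolar GTPase, measured 4.97, 5.62, 5.45 and 5.70 at 0 h and 5.79, 6.24, 6.55 and 7.09 at 20 h, without overlap, a rise of 0.98 (SE 0.22, adjusted p = 0.00943). Rrs1, which helps to place a ribonucleoprotein of the large subunit, measured 6.10, 6.15, 6.15 and 6.23 at 0 h and 6.84, 7.15, 7.002 and 6.98 at 20 h. These Rrs1 groups lay far apart relative to their spread, with a difference of 0.83 (SE 0.12, adjusted p = 1.51e-04). Nop2, a methyltransferase of the large-subunit RNA, rose by 0.70 (SE 0.19, adjusted p = 0.0235), and Nop16 by 0.43 (SE 0.14, adjusted p = 0.0496). The last of the 5 was Grwd1, a nucleolar chaperone with WD repeats (adjusted p = 0.0238). It was above the 30th percentile of its array in 0 of 4 livers at 0 h and in 3 of 4 at 20 h, so its level at 0 h is not known and no size is given. Rrp1, at 0.12 (SE 0.10), was nearest 0. Ddx18 did not pass (0.42), while its other, dimmer probe set rose by 0.66 (adjusted p = 0.00444). In Cre minus livers that probe set was also lower at 40 h than at 20 h (-0.55, adjusted p = 0.0170). In Cre plus livers it rose against 0 h at 20, 30 and 40 h (0.86, 0.51 and 0.57), and the one used passed at 20 h alone.

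The snoRNP proteins had the highest class median, 0.68, and 3 of 7 rose. Nop56, a core protein of the box C/D particles that guide methylation, measured 5.81, 6.48, 6.22 and 6.49 at 0 h and 6.40, 7.12, 8.31 and 8.36 at 20 h. Liver A at 20 h lay within the range of the 0 h livers and the other livers above it, and the difference was 1.30 (SE 0.31, adjusted p = 0.0124). The other Nop56 probe set, which was dimmer, gave 0.08 (adjusted p = 0.823). Its partner Nop58 rose by 0.91 (SE 0.23, adjusted p = 0.0159), and Nhp2, a protein of the box H/ACA particles that guide pseudouridylation, by 0.90 (SE 0.24, adjusted p = 0.0212). Fibrillarin (Fbl), the methyltransferase of the box C/D particles, was nearest 0 at 0.15 (SE 0.10).

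Of the 4 nucleolar proteins of several steps 2 rose, with a median of 0.60. Nucleolin (Ncl), an abundant nucleolar protein that binds the ribosomal RNA precursor, measured 8.11, 8.27, 8.18 and 8.18 at 0 h and 8.58, 9.25, 9.24 and 9.59 at 20 h. All 20 h livers lay above all 0 h livers, a rise of 0.98 (SE 0.26, adjusted p = 0.0196). Nucleophosmin (Npm1), a nucleolar chaperone, rose by 0.89 (SE 0.27, adjusted p = 0.0399). Surf6 lay below the 30th percentile in all 4 livers of both times, and its difference is not given. It still counts in the median of this class, here and in the later comparisons.

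**Figure D2:**
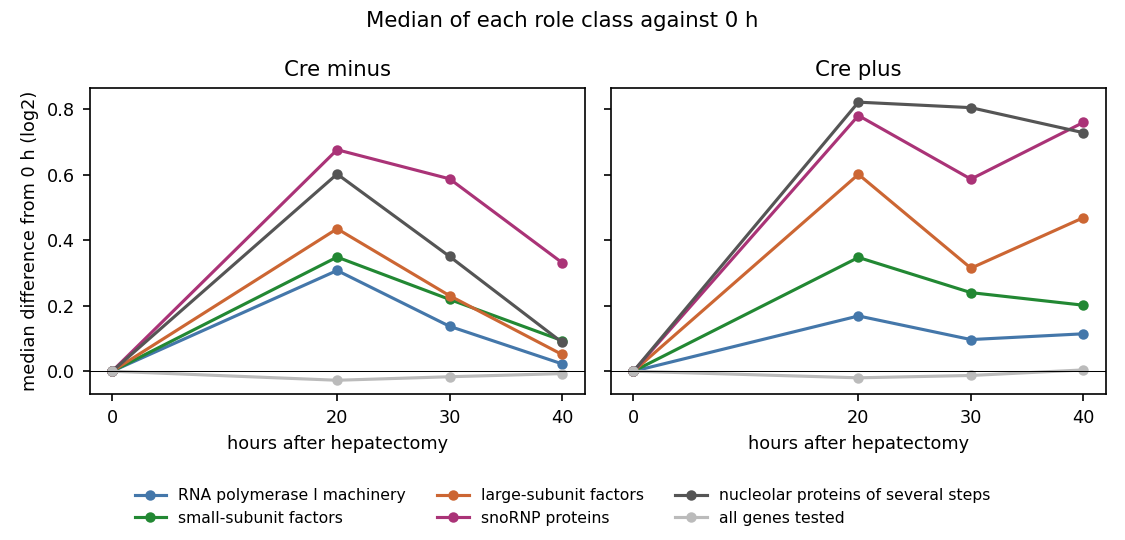
The lines give the median log2 difference from 0 h (vertical axis) of each role class at 20, 30 and 40 h (horizontal axis), in Cre minus livers on the left and Cre plus livers on the right; grey is the median of all genes tested. In Cre minus livers every class is lower at 40 h than at 20 h (snoRNP proteins 0.68 at 20 h and 0.33 at 40 h), and in Cre plus livers the snoRNP proteins and the proteins of several steps stay between 0.59 and 0.82.

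Later in the Cre minus course fewer members passed. At 30 h 3 of 42 had risen against 0 h, namely Rrs1 (0.86), Nop58 (0.98) and Nhp2 (0.92), with 0.973% of all genes risen and 3.36% changed in either direction, and the median was 0.25. Without the arrays that stood apart 1 member passed, and 1 passed without Cre minus 0 h A, 0 h D, 30 h B or 30 h C, while 5 passed without 30 h D. At 40 h Rrs1 (0.63, adjusted p = 0.00126) and Nop58 (0.83, adjusted p = 0.0349) had risen, 2 of 42 against 2.52% of all genes risen and 5.22% changed in either direction, and the median was 0.10. The count was 1 without Cre minus 0 h A, 0 h B, 0 h D, 40 h B or 40 h C. The groups did not overlap for 11 members at 30 h and 8 at 40 h, as for 10.8% and 16.0% of all genes.

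The direct comparison of 40 h with 20 h in Cre minus livers found 4 members lower, with 3.27% of all genes lower and 6.13% changed in either direction, and a median of -0.28. Ncl fell by 1.06 (SE 0.26, adjusted p = 0.0162), from the 20 h values given above to 7.71, 8.21, 8.02 and 8.34 at 40 h. Its 40 h livers lay below all 20 h livers and spread around the values at 0 h. Bysl, which acts on the small subunit, fell by 0.65 (SE 0.19, adjusted p = 0.0430). Bop1, a scaffold of a large-subunit assembly complex, fell by 0.53 (SE 0.15, adjusted p = 0.0361), although its other probe set gave 0.25 (adjusted p = 0.154). Mphosph10, which joins Imp3 and Imp4 in the early small-subunit complex, fell by 0.39 (SE 0.09, adjusted p = 0.0131). The count was 8 without the arrays that stood apart or without Cre minus 20 h A. It was 2 without 20 h B, 20 h C, 40 h B or 40 h C, and 1 without 20 h D or 40 h A.

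In Cre plus livers more members passed against 0 h at each time than in Cre minus livers, a difference in counts that is not itself a test. Against 0 h, 20 of 42 rose at 20 h (all genes 3.42% risen and 9.76% changed), 11 at 30 h (3.51% risen and 10.5% changed) and 16 at 40 h (3.52% risen and 10.0% changed). The medians were 0.45, 0.29 and 0.34, with -0.02, -0.01 and 0.00 over all genes. At 20 h the Cre plus median was 0.27 within PHX2 and 0.59 within PHX3, and the Cre minus median 0.57 and 0.24. The genotype with the larger median thus differed between the batches. Within PHX3 alone 22 members rose at 20 h in Cre plus livers (5.70% of all genes risen) and 1 in Cre minus livers (1.68%). Within PHX2 alone 0 passed in either, with 0.0147% and 1.08% of all genes changed. By class at 40 h, 1 of 5 RNA polymerase I genes, 3 of 12 small-subunit factors, 6 of 14 large-subunit factors, 4 of 7 snoRNP proteins and 2 of 4 proteins of several steps had risen. Between 20 and 40 h in Cre plus livers limma called 0 of 42 members and 0% of all genes, with 5 members at an unadjusted p under 0.05 and 1 call with array weights. The median of -0.04 combined 0.11 within PHX2 and -0.24 within PHX3, with 33 and 8 of 42 differences positive, so the batches ran in opposite directions. Within PHX3 alone 3 members were lower, with 7.88% of all genes changed, and within PHX2 alone 0. The 12 members that rose by 20 h in Cre minus livers and the 20 that did so with the transgene shared 11. At 40 h both members that rose in Cre minus livers were among the 16 in Cre plus livers. The count of 20 fell to 12 without Cre plus 0 h C or 0 h D and to 9 without 20 h A or 20 h B, the count of 11 to 7 without 0 h C, and the count of 16 to 10 without 0 h A.

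The 16 members that rose at 40 h in Cre plus livers were of several roles. Polr1d, the other subunit shared by RNA polymerases I and III, measured 6.33, 6.74, 6.47 and 6.47 at 0 h and 7.06, 7.32, 7.20, 7.47 and 7.24 at 40 h. It was the member of its class that rose in these livers, without overlap, by 0.77 (SE 0.16, adjusted p = 0.00455). Nop58 measured 4.73, 5.40, 4.79 and 5.13 at 0 h and 6.02, 6.35, 6.48, 6.92 and 6.35 at 40 h, and its difference of 1.41 (SE 0.22, adjusted p = 2.53e-04) was the highest of the members. The Nop58 probe set carries a suffix that marks possible cross-hybridization. Gnl3 rose by 1.25 (SE 0.21, adjusted p = 6.57e-04), Nhp2 by 1.23 (SE 0.23, adjusted p = 0.00132) and Npm1 by 1.16 (SE 0.25, adjusted p = 0.00515). Tsr1 rose by 1.05, Ncl by 1.03, Rrs1 by 0.93, Gar1, a box H/ACA protein, by 0.76, Nmd3, the export adapter of the large subunit, by 0.72, and Ebna1bp2 also by 0.72. The rises of Wdr43 (0.65), Nop16 (0.47), Fbl (0.36) and Imp4 (0.33) were smaller. The other Wdr43 probe set gave 0.41 (adjusted p = 0.0527) and the other Nop16 probe set -0.052 (adjusted p = 0.911), and neither passed. Grwd1 passed (adjusted p = 0.0330) with 1 of 4 livers at 0 h above the 30th percentile. Rrs1 and Nop58 passed in all 6 comparisons with 0 h. In total 23 members rose in at least 1 of the 6, 0 fell in any, and 19 passed in none, among them Polr1a, Polr1b and Ubtf. In single comparisons of the 6, 0.973% to 3.52% of all genes rose. The share of all genes that rose in at least 1 was not counted, so the pooled count has no background beside it. These counts use 1 probe set per gene. The other Polr1c probe set was lower at 40 h than at 0 h in Cre plus livers (-0.43, adjusted p = 0.0338), while the one used gave 0.11.

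**Figure D3:**
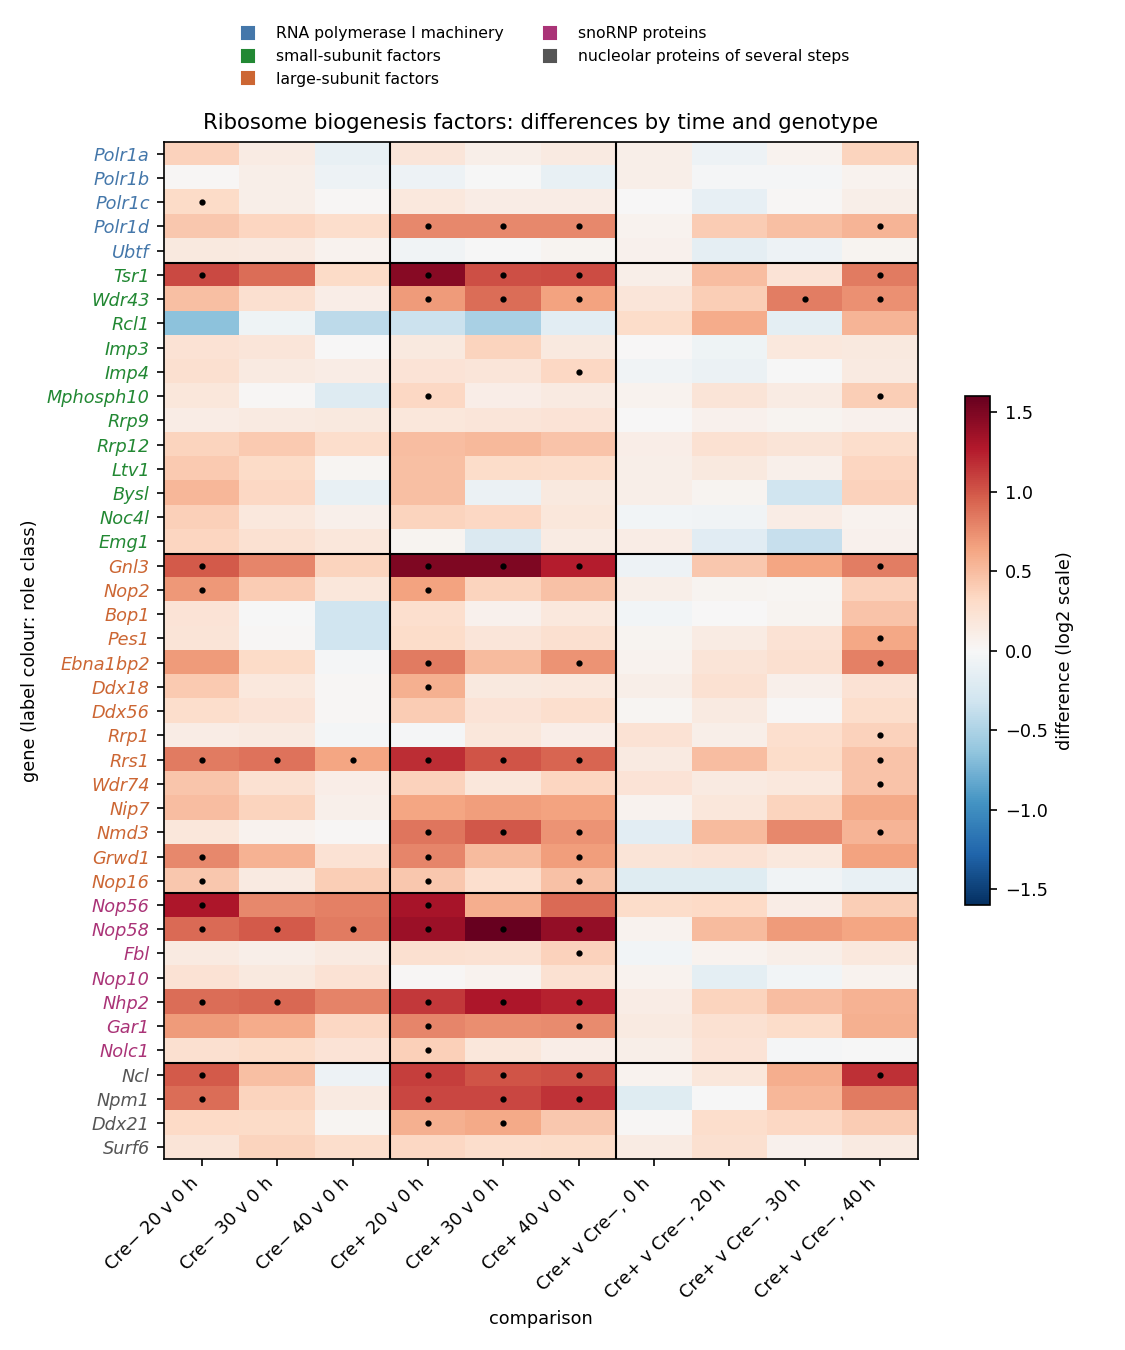
Rows are the 42 tested members, grouped by role, and columns are comparisons: each later time against 0 h by genotype, then the genotype difference at every time. Colour gives the log2 difference (red higher, blue lower) and a dot an adjusted p under 0.05; the 4 genotype columns hold 0, 0, 1 and 12 dots.

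The genotypes were then compared at each time. At 0 h, before regrowth, 0 of 42 members differed by limma, with 1 at an unadjusted p under 0.05 and 0 with array weights, while 0.0442% of all genes were called. The differences ran from -0.19 for Nop16 to 0.29, and their median was 0.06. At 20 h 0 members again passed, with 7 at an unadjusted p under 0.05 and 0 with array weights, and 0.265% of all genes were called. The 20 h median of 0.17 combined -0.17 within PHX2 and 0.57 within PHX3, so the batches differed in direction. Within PHX3 alone 7 members passed, all higher, with 1.44% of all genes higher and 3.33% changed, and within PHX2 alone 0 members and 0% of all genes. The largest difference at 20 h relative to its error was that of Rrs1, 0.49 (SE 0.12, adjusted p = 0.0721).

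At 30 h 1 of 42 members was higher in Cre plus livers, with 0.133% of all genes higher and 0.309% changed in either direction. Wdr43 measured 7.02, 6.90, 7.78 and 7.004 in the Cre minus livers and 7.93, 8.01 and 8.20 in the Cre plus livers. Cre minus C was far above the other Cre minus livers, yet the groups did not overlap, and the difference was 0.82 (SE 0.17, adjusted p = 0.0400). The other Wdr43 probe set gave 0.51 (adjusted p = 0.146). Nmd3 measured 6.34, 6.13, 6.94 and 5.87 in Cre minus and 7.04, 7.10 and 7.18 in Cre plus livers, and its difference of 0.76 (SE 0.18, adjusted p = 0.0538) did not pass.

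The 30 h result depended on Cre minus C. Without that liver 5 members were higher in Cre plus livers, namely Wdr43 (0.99), Nmd3 (0.97), Nop58 (0.91), Nhp2 (0.82) and Polr1d (0.76), and 1.36% of all genes were higher and 2.89% changed. Without all 3 arrays that stood apart 8 members passed, Nip7 (1.06), a large-subunit factor, Nmd3 (1.02), Wdr43 (0.97), Nop58 (0.97), Gar1 (0.76), Polr1d (0.76), the RNA helicase Ddx21 (0.66) and Rrp12 (0.58), and then 4.55% of all genes were higher and 10.7% changed. Leaving out any other single liver of the 30 h groups left 0 members, with 0% to 0.0442% of all genes higher. In Cre minus C the difference between the 3′ and 5′ probe sets of Actb, a sign of RNA quality, was 1.24. Group means at 30 h were 1.06 for Cre minus and 0.84 for Cre plus livers. The value was not particular to Cre minus C, as Cre minus A, B and D at 30 h had 1.17, 1.11 and 0.74. Cre plus 40 h C, which did not stand apart, had 1.25. The part of RNA quality in the 30 h result was not tested.

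At 40 h the members differed most between the genotypes. Of the 42 members 12 were higher in Cre plus livers and 30 did not pass, with 2.40% of all genes higher and 5.81% changed in either direction. The differences were positive for 40 of 42 members, with a median of 0.38 over the members and -0.01 over all genes, and the median was 0.38 within PHX2 and 0.44 within PHX3. The groups did not overlap for 17 members, as for 6.79% of all genes. By class the medians were 0.09 for RNA polymerase I with 1 of 5 genes higher, 0.31 for small-subunit factors with 3 of 12, 0.46 for large-subunit factors with 7 of 14, 0.39 for snoRNP proteins with 0 of 7 and 0.62 for the proteins of several steps with 1 of 4. These differences between classes were not tested. The median of the proteins of several steps includes Surf6, which was above the 30th percentile in 0 of 4 Cre minus and 1 of 5 Cre plus livers. The count of 12 fell to 3 without Cre minus 40 h A, 6 without B and 4 without C, and to 5 without Cre plus 40 h B and 6 without E, and it was 15 without the arrays that stood apart. In the same order, the share of all genes that were higher was 1.21%, 1.81%, 1.15%, 1.92%, 1.52% and 4.16%. Within PHX3 alone 10 members were higher, with 2.56% of all genes higher and 5.16% changed. Within PHX2, with 1 Cre minus array, 0 members and 0.103% of all genes passed.

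**Figure D4:**
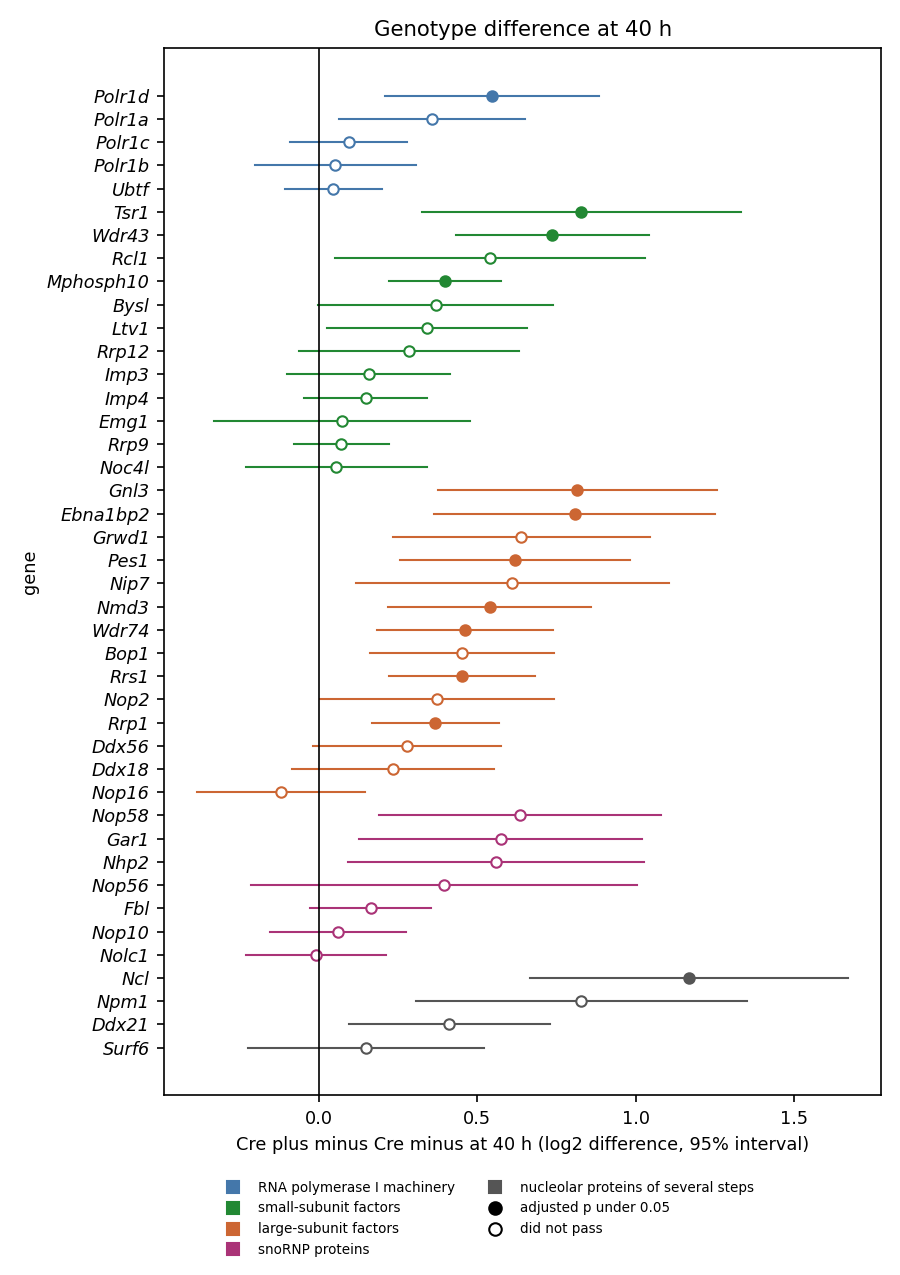
Points are log2 differences of Cre plus minus Cre minus livers at 40 h for the 42 members, with 95% intervals as lines, coloured by role and sorted within it; filled points passed an adjusted p of 0.05. Of the 14 large-subunit factors 7 are filled, of the 7 snoRNP proteins 0, and Ncl lies farthest to the right at 1.17.

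Of the RNA polymerase I machinery, Polr1d was higher at 40 h. It measured 6.80, 6.78, 6.45 and 6.73 in the Cre minus livers and 7.06, 7.32, 7.20, 7.47 and 7.24 in the Cre plus livers. The groups did not overlap, and the difference was 0.55 (SE 0.16, adjusted p = 0.0497). Polr1a differed by 0.36 (SE 0.14, adjusted p = 0.168), Polr1c by 0.09 (SE 0.09), Polr1b by 0.05 (SE 0.12) and Ubtf by 0.05 (SE 0.07). Ubtf measured 7.85, 7.61, 7.78 and 7.87 in Cre minus and 7.81, 7.99, 7.73, 7.82 and 7.81 in Cre plus livers, so its groups overlapped.

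Among the small-subunit factors Wdr43, Tsr1 and Mphosph10 were higher. Wdr43 measured 7.08, 6.82, 6.90 and 7.01 in Cre minus and 7.33, 7.94, 7.60, 7.93 and 7.86 in Cre plus livers at 40 h. The lowest Cre plus liver lay above the highest Cre minus liver, and the difference was 0.74 (SE 0.15, adjusted p = 0.00243). Its other probe set gave 0.55 (adjusted p = 0.0123). Tsr1 measured 6.57, 6.38, 6.87 and 7.03 in Cre minus and 7.24, 7.76, 7.45, 7.37 and 7.98 in Cre plus livers, a difference of 0.83 (SE 0.25, adjusted p = 0.0457) without overlap. Mphosph10 measured 5.42, 5.43, 5.68 and 5.65 in Cre minus and 5.80, 5.75, 5.86, 6.29 and 6.19 in Cre plus livers. Its groups were close but did not overlap, and its difference was 0.40 (SE 0.09, adjusted p = 0.00518). The Cre plus livers lay near the Mphosph10 level at 0 h (0.14, SE 0.09, adjusted p = 0.337) and the Cre minus livers at -0.20 from it (SE 0.09, adjusted p = 0.251). Imp4, which binds Mphosph10, differed by 0.15 (SE 0.09, adjusted p = 0.472), and Rrp9 by 0.07 (SE 0.07).

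The large-subunit factors that were higher at 40 h were Gnl3, Ebna1bp2, Pes1, Nmd3, Wdr74, Rrs1 and Rrp1. Gnl3 measured 5.60, 5.84, 5.63 and 5.77 in Cre minus and 5.87, 6.75, 6.47, 6.94 and 6.86 in Cre plus livers. Cre plus A lay just above the Cre minus livers and the others well above, with a difference of 0.82 (SE 0.21, adjusted p = 0.0216). Ebna1bp2, a nucleolar factor of large-subunit assembly, measured 5.60, 5.73, 5.85 and 5.94 in Cre minus and 6.25, 6.71, 6.53, 6.20 and 7.22 in Cre plus livers, a difference of 0.81 (SE 0.22, adjusted p = 0.0248). Pes1, which works with Bop1, measured 5.14, 4.89, 4.76 and 5.11 in Cre minus and 5.40, 5.56, 5.60, 5.67 and 5.77 in Cre plus livers, a difference of 0.62 (SE 0.18, adjusted p = 0.0367). Neither gene's groups overlapped. Pes1 had not risen against 0 h in Cre plus livers (0.26, adjusted p = 0.402), and it lay at -0.32 from 0 h in Cre minus livers (adjusted p = 0.419). Nmd3 measured 6.31, 6.24, 6.03 and 6.42 in Cre minus and 6.53, 6.86, 6.66, 7.28 and 6.70 in Cre plus livers, a difference of 0.54 (SE 0.16, adjusted p = 0.0390) without overlap. In Cre minus livers Nmd3 stayed within 0.18 of its 0 h level at each time (0.18, 0.06 and 0.02), none of which passed.

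Rrs1 measured 6.61, 6.67, 6.72 and 7.05 in Cre minus and 7.17, 7.23, 7.005, 7.37 and 7.38 in Cre plus livers at 40 h. Cre minus D lay above Cre plus C, so the Rrs1 groups overlapped, and the difference was 0.45 (SE 0.11, adjusted p = 0.0142). Wdr74, a WD-repeat factor of large-subunit assembly, differed by 0.46 (SE 0.13, adjusted p = 0.0422). Rrp1, a nucleolar protein of large-subunit precursors, differed by 0.37 (SE 0.10, adjusted p = 0.0227). Both of these showed no overlap. Rrp1 had not risen with time in either genotype, with 40 h differences from 0 h of -0.03 (Cre minus) and 0.11 (Cre plus), and it differed by 0.23 between the genotypes at 0 h (SE 0.10) without passing. Bop1 (0.45, adjusted p = 0.0618) did not pass, nor did Grwd1 (adjusted p = 0.0579), which was above the 30th percentile in 0 of 4 Cre minus and 5 of 5 Cre plus livers, and Nop16 lay at -0.12 (SE 0.13).

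Nucleolin had the largest difference of the members at 40 h. Ncl measured 7.71, 8.21, 8.02 and 8.34 in Cre minus and 8.56, 9.82, 8.77, 9.20 and 9.96 in Cre plus livers. The Cre plus livers spread widely but all lay above the Cre minus livers, and the difference was 1.17 (SE 0.24, adjusted p = 0.00350, 2.25-fold). Within PHX2 the difference was 1.24 and within PHX3 1.07. Npm1 measured 7.56, 8.73, 7.998 and 7.97 in Cre minus and 8.33, 9.31, 8.77, 8.42 and 9.50 in Cre plus livers, with Cre minus B inside the Cre plus range, and its difference of 0.83 (SE 0.25, adjusted p = 0.0551) did not pass. Among the snoRNP proteins none passed. Nop58 differed by 0.63 (adjusted p = 0.0956), Gar1 by 0.57 (adjusted p = 0.141), Nhp2 by 0.56 (adjusted p = 0.179), Nop56 by 0.39 (adjusted p = 0.565) and Fbl by 0.16 (adjusted p = 0.398), with 3 of the 7 at an unadjusted p under 0.05. Nop58 passed without Cre plus 40 h A (adjusted p = 0.0493). After quantile normalization 13 members in all were called, none of them a snoRNP protein, with 6.23% of all genes called.

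**Figure D5:**
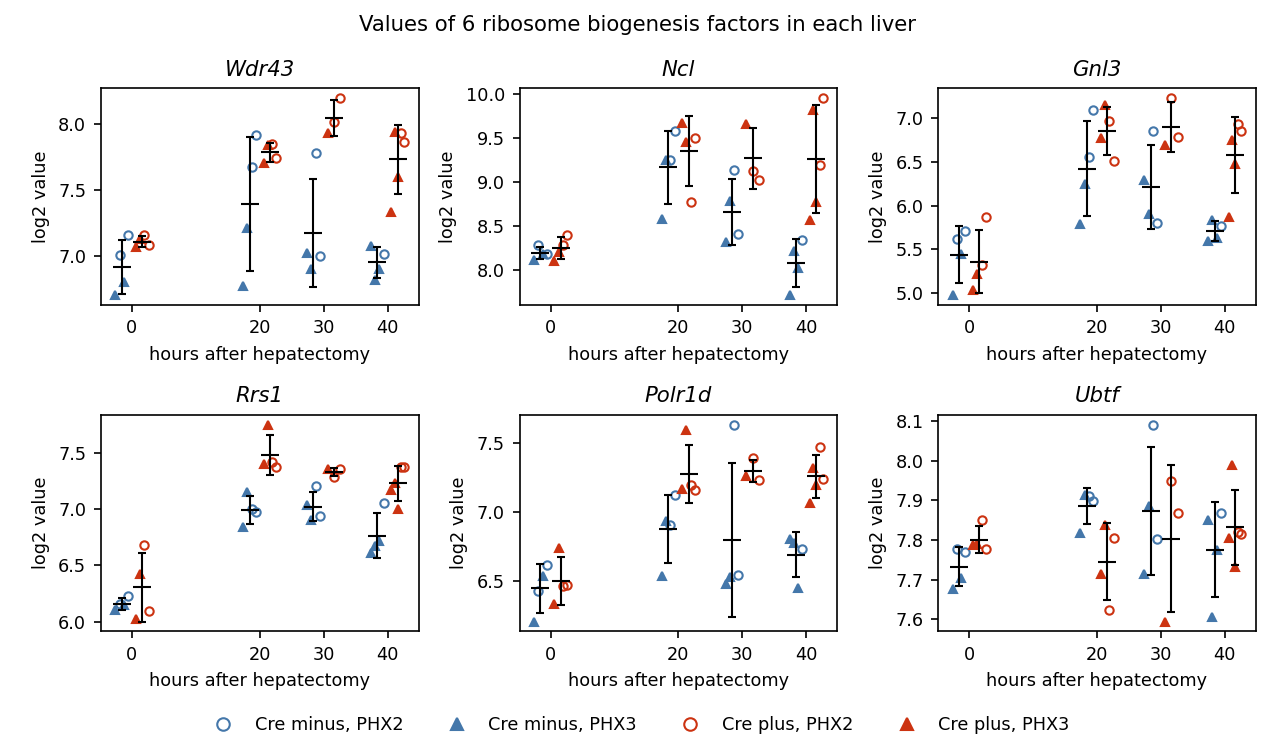
Each panel gives the log2 values of a member in every liver (vertical axis) by hours after hepatectomy (horizontal axis), Cre minus in blue and Cre plus in red, with circles for PHX2 and triangles for PHX3; bars are means and SD. At 40 h the Wdr43 values are 6.82 to 7.08 in Cre minus and 7.33 to 7.94 in Cre plus livers, while those of Ubtf, 7.61 to 7.87 and 7.73 to 7.99, overlap.

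The calls at 40 h differed in how well they held. Wdr43 passed in all 19 alternative analyses, with an adjusted p of 0.0215 at most. Ncl and Mphosph10 passed in 17 of 18 and lost the call when the arrays of the 40 h groups were fitted alone (adjusted p = 0.0775 and 0.0920). Rrs1 also passed in 17 of 18, and its adjusted p was 0.0680 without Cre minus 40 h A. The other 8 lost the call in 7 to 11 of 18, Polr1d most often, with an adjusted p of up to 0.173. The direction held in each of these.

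Whether the change after hepatectomy differed between the genotypes was tested by the interaction, the genotype difference at a time minus that at 0 h. By limma 0 of 42 members passed at 20, 30 or 40 h, with 0%, 0.0147% and 0.678% of all genes called, and 2, 3 and 11 members had an unadjusted p under 0.05. With array weights 0, 9 and 2 members passed, with 0.0147%, 18.0% and 2.24% of all genes, and without the arrays that stood apart 1 passed at 30 h, with 2.03%. At 40 h the interaction was 1.11 for Ncl (SE 0.35, adjusted p = 0.324), 1.02 for Npm1 (SE 0.37, adjusted p = 0.506), 0.90 for Gnl3 (SE 0.31, adjusted p = 0.434), 0.71 for Nmd3 (SE 0.23, adjusted p = 0.324) and 0.55 for Wdr43 (SE 0.21, adjusted p = 0.586). The higher counts with time in Cre plus livers are therefore not shown to be a different change with time. The interactions share livers with the comparisons above.

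Promoter sequences were searched for CACGTG, the E-box bound by Myc with Max and by related factors, because Myc is known to act on many genes of ribosome assembly. The sequences are from RefSeq, build GRCm38.p6, and span 250 bases before to 50 bases after each annotated start. The motif is its own reverse complement, so a search of either strand finds the same matches. Of the 53 listed genes 48 had a promoter, and 8 of these (16.7%) held the motif, against 8.09% of 27025 genes. The holders were 4 of 18 small-subunit factors (Wdr43, Tsr1, Imp4 and Ltv1) and 4 of 15 large-subunit factors (Pes1, Nmd3, Nop2 and Grwd1), and 0 of 5 RNA polymerase I genes, 0 of 7 snoRNP proteins and 0 of 3 proteins of several steps. Of the 8 matches 5 lay after the start, and with the first 250 bases alone 3 of 48 members (6.25%) and 6.86% of all genes held it. The motif was in 4 of the 11 members that were higher at 40 h and had a promoter (36.4%) and in 4 of the 26 that did not pass (15.4%). In the first 250 bases alone these were 1 of 11 (9.09%) and 2 of 26 (7.69%), and neither contrast was tested. A match is a description of the letters and does not show binding.

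The promoters of these 4 members follow, with the motif in capitals, and below them that of Ncl, the member with the largest difference at 40 h, in which the motif was not found. Wdr43 is at chr17:71615965-71616264 (plus strand), Tsr1 at chr11:74897830-74898129 (plus), Pes1 at chr11:3963725-3964024 (plus), Nmd3 at chr3:69721805-69722104 (plus) and Ncl at chr1:86359406-86359705 (minus). The first base of the motif is base 18 after the start in Wdr43, 25 in Tsr1 and 3 in Pes1, and lies at -114 in Nmd3.
Wdr43: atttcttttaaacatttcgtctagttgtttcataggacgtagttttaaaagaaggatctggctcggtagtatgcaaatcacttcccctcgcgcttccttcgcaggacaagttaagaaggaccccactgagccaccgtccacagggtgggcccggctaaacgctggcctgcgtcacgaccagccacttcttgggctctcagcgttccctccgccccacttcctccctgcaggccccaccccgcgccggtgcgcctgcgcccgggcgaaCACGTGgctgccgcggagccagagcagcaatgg
Tsr1: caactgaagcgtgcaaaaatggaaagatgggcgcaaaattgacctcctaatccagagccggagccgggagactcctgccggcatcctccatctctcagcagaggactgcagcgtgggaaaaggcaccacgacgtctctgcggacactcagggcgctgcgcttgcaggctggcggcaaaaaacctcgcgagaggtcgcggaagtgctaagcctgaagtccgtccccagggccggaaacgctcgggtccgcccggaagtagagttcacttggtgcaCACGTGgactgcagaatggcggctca
Pes1: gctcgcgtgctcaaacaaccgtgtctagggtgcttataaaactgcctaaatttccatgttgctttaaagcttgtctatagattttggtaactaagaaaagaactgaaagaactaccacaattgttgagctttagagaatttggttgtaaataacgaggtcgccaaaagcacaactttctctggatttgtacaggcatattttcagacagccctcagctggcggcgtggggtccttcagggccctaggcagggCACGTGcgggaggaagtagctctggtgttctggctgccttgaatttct
Nmd3: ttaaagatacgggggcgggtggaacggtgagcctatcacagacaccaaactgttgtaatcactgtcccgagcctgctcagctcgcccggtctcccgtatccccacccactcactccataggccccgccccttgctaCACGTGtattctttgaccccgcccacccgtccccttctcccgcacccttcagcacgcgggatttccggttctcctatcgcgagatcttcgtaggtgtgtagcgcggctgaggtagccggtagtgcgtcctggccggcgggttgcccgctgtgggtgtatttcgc
Ncl: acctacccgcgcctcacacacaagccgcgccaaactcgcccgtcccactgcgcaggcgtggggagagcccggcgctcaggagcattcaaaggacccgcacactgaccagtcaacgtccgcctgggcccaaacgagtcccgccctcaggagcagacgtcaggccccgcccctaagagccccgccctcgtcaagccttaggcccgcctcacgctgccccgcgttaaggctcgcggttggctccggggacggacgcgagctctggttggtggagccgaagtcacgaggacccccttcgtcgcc

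Other genes of ribosome assembly, taken from a list apart from the members, were counted in the same way. At 40 h 11 of 68 tested were higher in Cre plus livers, 0 of 9 other RNA polymerase I genes, 4 of 22 other small-subunit factors, 7 of 25 other large-subunit factors and 0 of 12 other snoRNP and processing genes. Of all genes tested 2.40% were higher. The medians were 0.16, 0.14, 0.31 and -0.06. Among large-subunit factors they were Eif6, which keeps the subunits from joining too early (1.07, adjusted p = 0.0158), Nifk (0.96, adjusted p = 0.00910), Gtpbp4 (0.75, adjusted p = 0.00308), Brix1 (0.68, adjusted p = 0.00395), the GTPase Gnl2 (0.63, adjusted p = 0.0162), Rsl1d1 (0.59, adjusted p = 0.0336) and Ddx54 (0.58, adjusted p = 0.0101). Among small-subunit factors they were Utp4 (0.97, adjusted p = 0.0254), Dcaf13 (0.79, adjusted p = 0.00382), Fcf1 (0.72, adjusted p = 0.0208) and Krr1 (0.55, adjusted p = 0.0262). Brix1 was also higher at 30 h (0.73, adjusted p = 0.0497). In Cre minus livers 6 of the 68 rose from 0 to 20 h, Eif6 (1.44), Ftsj3 (0.95), Utp18 (0.77), Rsl1d1 (0.75), Pno1 (0.67) and Polr1e (0.63), and 10 fell between 20 and 40 h. Of all genes tested 3.29% rose from 0 to 20 h and 3.27% fell between 20 and 40 h.

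The genes most like Wdr43 over the 8 group means were Lsg1 (Pearson r = 0.988), Brix1 (0.987), Tox4 (0.982), Gnl2 (0.981) and Fibp (0.977), as a description over 8 points that share their livers. Of these Lsg1, Brix1 and Gnl2 are large-subunit factors. Myc was above the 30th percentile on 9 of the 32 arrays, and on 0 of the 8 at 0 h. Its log2 values at 40 h were 3.85, 3.72, 3.98 and 4.28 in Cre minus and 4.56, 5.26, 4.19, 5.40 and 4.95 in Cre plus livers, with Cre minus D above Cre plus C. Of these 0 of 4 and 3 of 5 were above the percentile, and the difference did not pass (adjusted p = 0.192). With most Myc values that low, no sizes are given.

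Markers of other cells moved with the genotype and with time. At 40 h 6 of the 9 tested markers of Kupffer cells and macrophages were lower in Cre plus livers, with a median of -0.81. Their summed level was 11.18 to 11.84 as log2 in Cre minus and 10.30 to 10.99 in Cre plus livers, without overlap. At 20 h 5 of 9 and at 30 h 2 of 9 were lower. At 0 h 0 of 9 passed, but their median was already -0.54. Their summed level at 0 h was 11.53 to 11.90 in Cre minus and 10.88 to 11.47 in Cre plus livers, also without overlap. The erythroid median at 0 h was -0.48, with 0 of 5 lower. Of the erythroid markers 2 of 5 were lower at 20 h and 2 of 5 at 40 h. Of the hepatocyte markers 1 of 9 was higher at 30 h and 1 of 9 lower at 40 h, with a hepatocyte median of 0.00 at 40 h. Between the genotypes 0.265%, 0.309% and 5.81% of all genes changed in either direction at 20, 30 and 40 h. Against 0 h, 5, 1 and 5 of the 9 Kupffer cell and macrophage markers were lower in Cre plus livers at 20, 30 and 40 h, and 0 of 9 at any time in Cre minus livers. Of the 7 endothelial markers 2, 2 and 3 were lower in Cre plus livers and 2, 0 and 1 in Cre minus livers. Of the 9 hepatocyte markers 1, 2 and 1 were higher and 0, 2 and 2 lower in Cre plus livers. In Cre minus livers 0, 1 and 0 hepatocyte markers were higher and 1, 1 and 0 lower. Of the 5 erythroid markers 2 were higher in Cre minus livers at 40 h. The shares of all genes changed against 0 h at 20, 30 and 40 h were 9.76%, 10.5% and 10.0% in Cre plus livers. In Cre minus livers they were 7.69%, 3.36% and 5.22%. The part of these markers in the differences of the members was not tested.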

How the data were processed

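Per the submitters' processing notes, the authors used RMA to obtain the deposited log2 expression values, 12488 probe sets of a 1-colour Affymetrix array. No source used here states the RMA version or whether both batches were normalized together. Values span 2.30 to 14.12, and for that reason a log base of 2 was assumed. Of the probe sets 66 are AFFX controls, 10833 had 1 gene in the platform annotation, updated to current symbols, 396 had several and 1193 are unnamed here.

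Testing was limited to the 9249 probe sets that exceeded their own array's 30th percentile on 3 or more arrays. The model (R 4.3.3, limma 3.58.1, lmFit followed by eBayes, 2-sided tests) took in all 32 arrays, with 1 term for each of the 8 groups and 1 for the batch, and gave 15 comparisons. P-values were adjusted by Benjamini-Hochberg over all probe sets within a comparison, and shares of all genes count 1 probe set per gene. The fit was tested on simulated data. The members and all lists were chosen with earlier results of these data known. Values are given for members called between genotypes, for the 3 called members of each class with the largest differences at 20 h in Cre minus and at 40 h in Cre plus livers, for the member of each class nearest 0, and for 7 core genes. Other called members were named after their values were seen. The number of arrays limits the precision.

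The alternatives were no batch term, the batch as a random block, no filter, median-centred arrays, quantile normalization, array weights, omission of the arrays that stood apart, a replicate block, a fit of the compared groups alone, another probe set and omission of each liver. No columns of the table were left unused. Proteins were not analysed here.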

Additional observations from a re-analysis of the deposited data

Results flagged for a closer look

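In each group of 4 or 5 livers, every member was checked for a highest or lowest liver whose gap to the nearest other liver was large against the range of the group, by Dixon's test at the 95% level. Of 308 combinations of member and group 25 had such a liver, and chance alone flags about 1 in 20 groups. Cre minus 30 h C accounted for 8 of the 25 and was high in each. Polr1d measured 7.63 there (other livers 6.48 to 6.54), Wdr43 7.78 (6.90 to 7.02), Nop2 8.33 (7.47 to 7.58), Nip7 7.82 (6.29 to 6.44), Grwd1 5.70 (4.56 to 4.69), Nhp2 10.07 (8.71 to 8.93), Gar1 8.89 (7.45 to 7.55) and Ddx21 7.36 (6.47 to 6.60). The cause was not tested.

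Other high livers were Cre plus 20 h B, with Polr1d at 7.59 and Rrs1 at 7.75, Cre plus 0 h C, with Ubtf at 7.85, Cre minus 40 h B, with Imp3 at 9.22, Cre minus 0 h D, with Grwd1 at 4.67, Cre minus 20 h C, with Nop10 at 10.05, and Cre minus 30 h B, with Npm1 at 8.59. Low livers were Cre minus 40 h B, with Polr1a at 6.45, Cre minus 20 h A, with Ubtf at 7.82 and Nop58 at 5.33, and Cre minus 30 h B, with Mphosph10 at 5.46. Cre plus 20 h C was low in Emg1 at 6.97 (others 7.93 to 7.96) and in Ddx56 at 7.77 (8.29 to 8.36). Cre minus 0 h A was low in Nmd3 at 5.97 and in Nop16 at 6.44, Cre plus 0 h C in Nop10 at 9.59, and Cre minus 0 h C in Surf6 at 4.08.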

How the results depend on the processing

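Over the alternatives, 672 of 742 recomputed calls of single members outside the omissions of 1 liver kept their direction and their side of the threshold, 67 lost the call and 3 changed sign, each with another probe set: Polr1c at 20 h against 0 h in Cre minus livers (-0.27), Bop1 at 40 h against 20 h in Cre minus livers (0.25) and Nop16 at 40 h against 0 h in Cre plus livers (-0.052). Counts of members called moved as follows, with the causes not tested. With array weights they were 30 for Cre minus 20 h, 5 for 30 h and 8 for 40 h against 0 h (with 23.6%, 10.4% and 21.6% of all genes called), 19 for Cre minus 40 h against 20 h (25.6%), 33 for Cre plus 20 h and 25 for 30 h against 0 h (29.9% and 40.3%), and 1 for Cre plus 40 h against 20 h (7.18%). For the genotype at 30 h they were 13, namely 12 higher and Emg1 lower (-0.50), a share near the 27.8% of all genes called there, and for the interactions at 30 and 40 h 9 and 2 (18.0% and 2.24%). With the arrays of the compared groups alone they were 23, 1 and 5 for Cre minus 20, 30 and 40 h against 0 h (16.8%, 1.44% and 10.5% of all genes), and 0 and 6 for the genotype at 30 and 40 h (0.0295% and 2.33%). Without the arrays that stood apart they were 1 for Cre minus 30 h against 0 h (3.27%), 8 for Cre minus 40 h against 20 h (10.5%), 8 for the genotype at 30 h (10.7%) and 1 for the interaction at 30 h (2.03%). The genotype count at 30 h was 0 with no batch term or with another probe set and 2 with the batch as a random block. At 20 h it was 1 after quantile normalization. In that order 0.206%, 0.309%, 0.413% and 0.280% of all genes were called. Replicate letters did not pair the livers: 6 of 32 arrays correlated best with their own letter, and same-letter correlations of deviations ran from -0.63 to 0.55. With a replicate block the genotype counts were 0 at 30 h and 4 at 40 h, with 0.0589% and 4.19% of all genes called. Leaving out 1 liver gave 0 to 5 for the genotype at 30 h and 3 to 15 at 40 h. Of all genes 0.0295% to 2.89% and 3.51% to 6.34% were called in these. In Cre minus livers the counts were 2 to 16, 1 to 5 and 1 to 2 for 20, 30 and 40 h. They were 1 to 8 for Cre minus 40 h against 20 h. In Cre plus livers they were 9 to 24, 7 to 11 and 10 to 17 for 20, 30 and 40 h. The shares of all genes for these counts over time are not given. The share of members with CACGTG was 16.7% in 300 bases and 6.25% in the first 250. Class medians kept within the spread between livers in 737 of 750 recomputations outside the omissions. Dim probe sets (Surf6, Grwd1 and Myc) limit what can be seen of those genes, and probe sets of Polr1b, Nop58 and Bysl carry a suffix that marks possible cross-hybridization.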
